A study of Mus musculus with 4 samples.

Results

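RNA-binding and splicing factor genes were followed in an m6ARIP-seq table of interscapular brown adipose tissue (iBAT). They were taken by symbol, as every gene of the table whose name starts with Hnrnp, Srsf, Rbm, Ddx, Dhx, Celf, Cpsf, Cstf, Cnot, Sf3, U2af, Igf2bp or Pum followed by a digit, with the m6A writer genes *Rbm15* and *Rbm15b* left out. This gave 91 of the 6192 gene symbols in the table and 112 of its 9243 regions. By name they fell into 24 splicing factors (Hnrnp, Srsf, Sf3 and U2af), 22 RBM genes, 32 helicases (Ddx and Dhx), 6 3′ end processing factors (Cpsf and Cstf) and 7 decay and 3′ UTR binding factors (Cnot, Celf and Pum). No Igf2bp gene had a region, so these m6A readers were not analysed here.

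The tissue came from BKO mice (Mettl3 flox/flox UCP1-iCre) and Mettl3 flox/flox mice of the C57BL/6 strain, all 8 weeks of age and on normal chow. Both groups carry the floxed *Mettl3* alleles, and only BKO mice carry the iCre, which follows *Ucp1* expression, so cells of iBAT that never express *Ucp1* keep *Mettl3*. An antibody against m6A captured fragments of poly(A)+ RNA (IP), and the fragments before capture were sequenced as input. Each genotype had a single IP and a single input library, made from RNA pooled from 5 mice, so no test across animals was possible, and every interval below covers counting error only. *Mettl3* had no region in the table, so the genotype labels could not be checked on the deleted gene.

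In the nucleus, splicing factors recognise splice sites and exonic or intronic signals in pre-mRNA, and DEAD-box and DEAH-box helicases remodel RNA and RNA-protein complexes during splicing, ribosome assembly, export and translation. CPSF and CstF cleave the pre-mRNA at its 3′ end before the poly(A) tail is added, and the CCR4-NOT complex later shortens this tail and starts mRNA decay. METTL3 is the catalytic subunit of the m6A writer, and m6A in mRNA is known to lie mostly near the stop codon and in the 3′ UTR.

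The libraries held 13687380 reads (BKO IP), 13394053 (BKO input), 8309098 (flox/flox IP) and 8826904 (flox/flox input), as the counts and RPM of the table imply. Over the 112 regions, the median count was 196 in the BKO IP, 73 in the BKO input, 124 in the flox/flox IP and 22 in the flox/flox input. The flox/flox input was the thinnest library, with under 20 reads at the most enriched region of 42 of the 91 genes and none at 4. Markers of other cell types also differed between the inputs. The 6 of 9 skeletal muscle markers in the table summed to 429 input RPM in BKO iBAT and 10.4 in flox/flox iBAT, the 3 of 5 fibroblast markers to 479 and 132, the 3 of 6 macrophage and immune markers to 171 and 107, and the 3 of 4 endothelial markers to 139 and 230. The endothelial markers went both ways, with 2 of the 3 higher in BKO, log2 ratios from -1.03 to 1.01 and a median of 0.24. The 9 of 10 brown adipocyte markers in the table, *Ucp1* among them, summed to 3795 input RPM in BKO iBAT and 1842 in flox/flox iBAT. They went both ways, with 5 of the 9 higher in BKO, log2 ratios from -1.51 to 3.42 and a median of 0.14. These sums cover the listed regions only. By quantitative PCR, a different measure, the study reported lower mRNA of *Ucp1*, *Pparg* and *Cidea* in BKO iBAT. The part of these differences in the results was not tested, and in bulk tissue fewer cells of a type and less RNA per cell cannot be told apart.

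Most of the 91 genes had lower m6A enrichment in BKO iBAT. Every gene took 1 value, that of its most enriched region, where IP RPM over input RPM (the fold enrichment) reached the highest value in BKO or flox/flox. By this value, 68 of 91 genes (74.7%) were lower in BKO than in flox/flox iBAT, where 70.3% of all genes in the table were lower. The median fold enrichment was 2.56 in BKO and 7.32 in flox/flox iBAT, and the median log2 ratio was -1.63, against -1.31 over all genes. With ratios centred on the median of all regions in the table, 56 of the 91 genes (61.5%) and 55.2% of all genes were lower in BKO. At least 2-fold lower were 56 of the 91 genes (61.5%), against 56% of all genes, and at least 2-fold higher were 10 (10.99%), against 17.4% of all genes. The counting interval of the log2 ratio lay below 0 for 55 genes (60.4%, against 51.1% of all genes) and above 0 for 7 (7.69%, against 11.8% of all genes). These shares were near those of the whole table, and nothing particular to the 91 genes is read from them.

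By the authors' peak calls, similar numbers of genes had a peak in each genotype, though for many genes the call differed between genotypes. A peak was called at the most enriched region of 63 genes in BKO iBAT (69.2%, against 71.1% of all genes) and of 66 genes in flox/flox iBAT (72.5%, against 72% of all genes). Of the 91 genes, 25 were called in BKO only, 28 in flox/flox only and 38 in both. Over all 6192 genes these counts were 1733, 1788 and 2671. All 28 genes called in flox/flox only were lower in BKO, as were 35 of the 38 called in both and 5 of the 25 called in BKO only. Over all genes, 1770 of 1788, 2214 of 2671 and 369 of 1733 were lower in these groups, and nothing particular to the 91 genes is read from this.

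**Figure D1:**
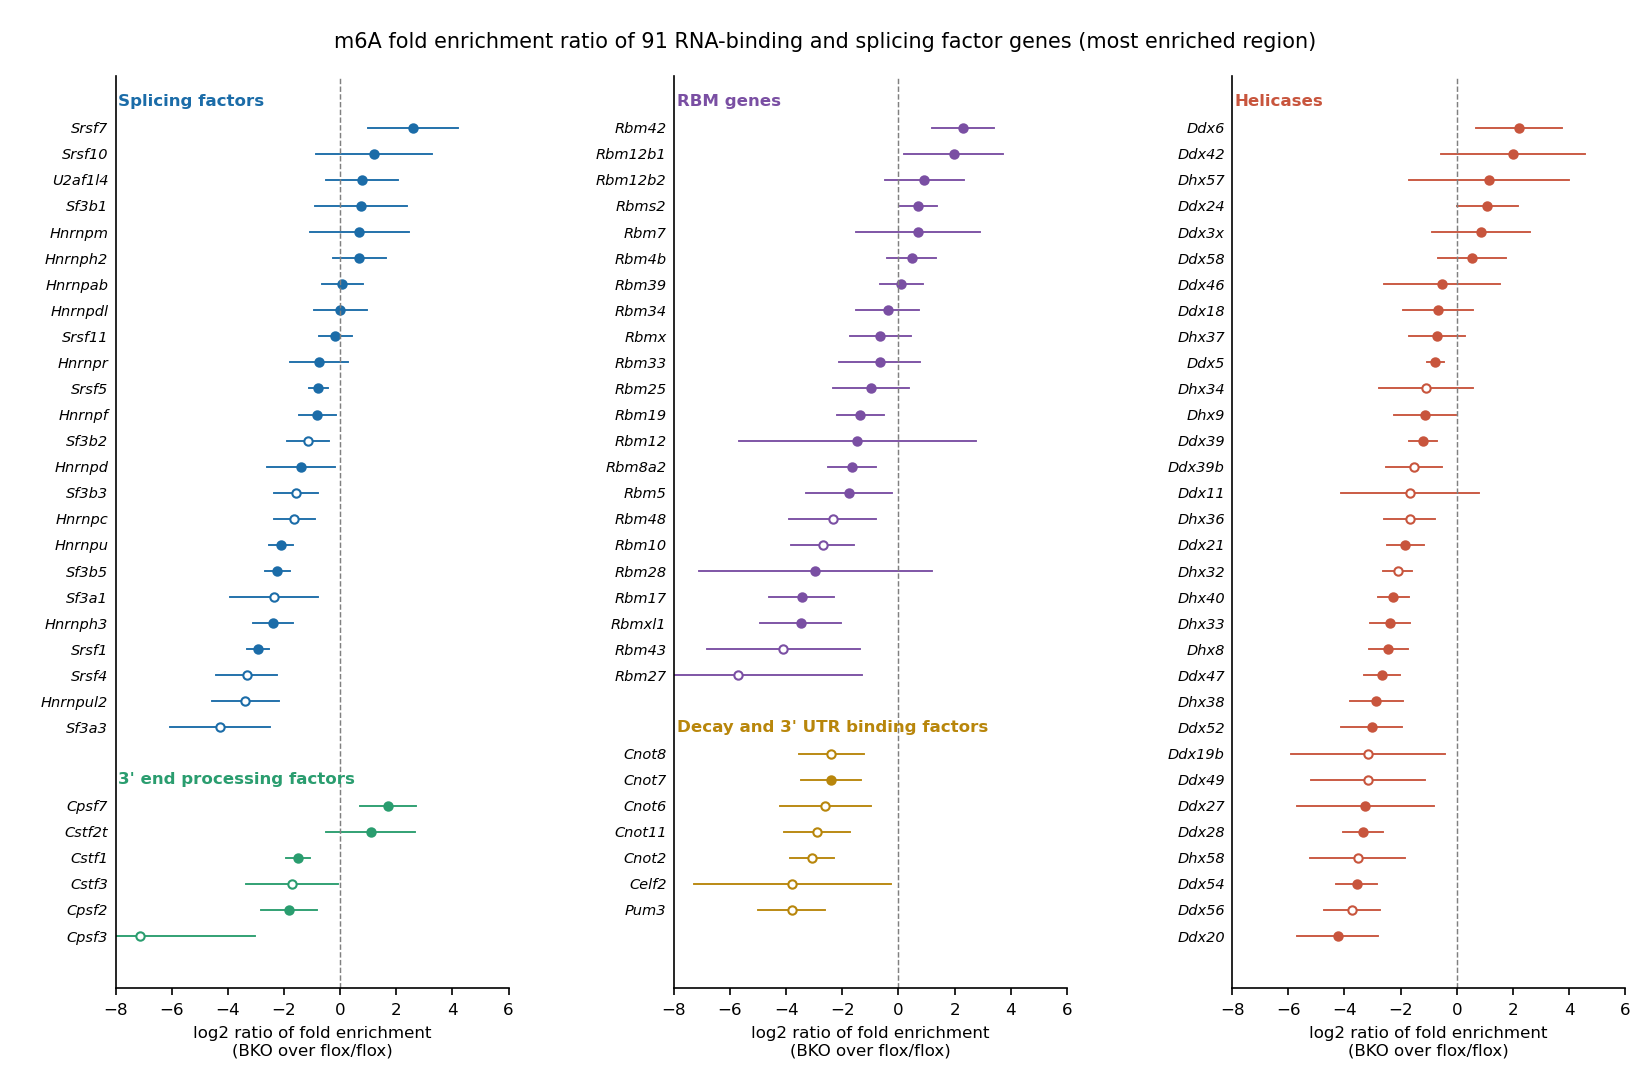
Log2 ratio of m6A fold enrichment, BKO over flox/flox, at the most enriched region of each of the 91 genes, with 95% counting intervals, drawn only as far as the axis reaches. Filled points are regions called as a peak in BKO and open points are regions that were not. The 7 decay and 3′ UTR binding factors all sit between -3.81 and -2.39, while splicing factors run from -4.27 to 2.59.

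The lower ratio was carried by both libraries. Input RPM was higher in BKO for 75 of the 91 genes (median log2 ratio 1.14, and 0.81 over all genes), and IP RPM was lower in BKO for 52 (median -0.77, and -0.54 over all genes). Over all 6192 genes, input RPM was higher for 4653 and IP RPM lower for 3597, and nothing particular to the 91 genes is read from these counts. All 23 genes with higher enrichment in BKO had a higher IP RPM there, and 20 of them also had a higher input RPM. Of all 1839 genes with higher enrichment, input RPM was higher for 1320 and IP RPM lower for 116. In 16 of the 68 genes with lower enrichment the IP RPM was not lower, and the log2 ratio of the input exceeded that of the IP. Of all 4353 genes with lower enrichment, IP RPM was lower for 3481.

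**Figure D2:**
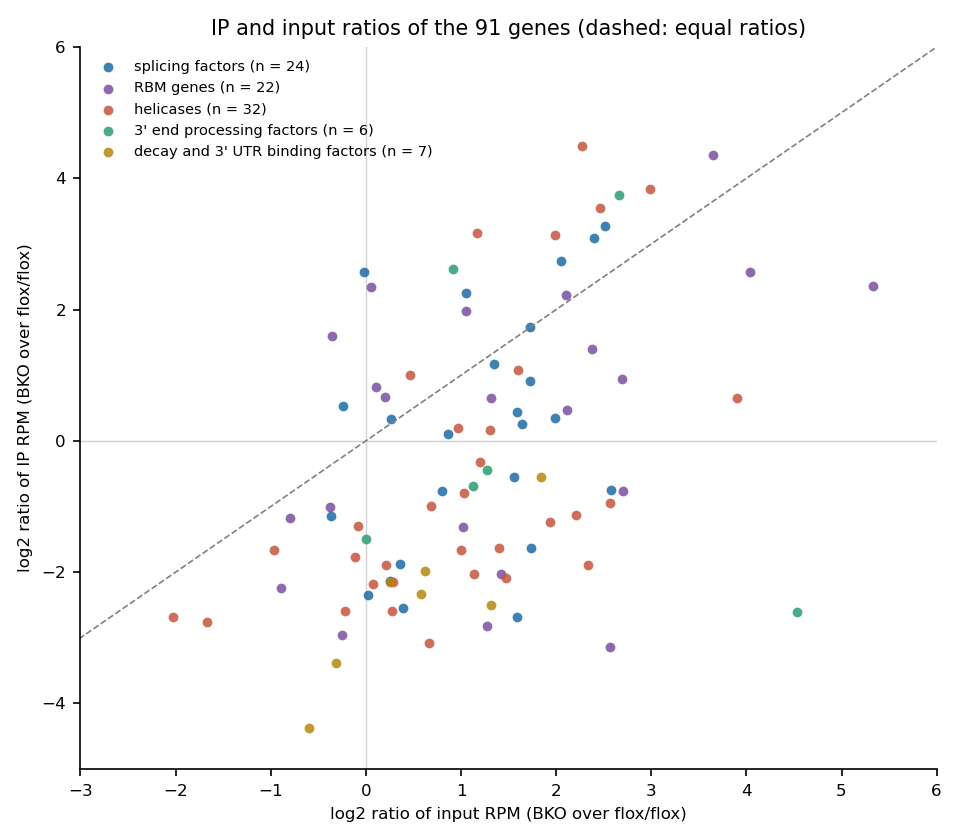
Log2 ratio of IP RPM against log2 ratio of input RPM, BKO over flox/flox, for the 91 genes coloured by class. Genes under the dashed line of equal ratios had lower enrichment in BKO, and 75 of 91 lie right of 0 on the input axis (4653 of 6192 over all genes, not drawn).

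Among the classes, decay and 3′ UTR binding factors had the lowest median log2 ratio (-2.90) and splicing factors the highest (-0.98, which became 0.071 with ratios centred on the median of all regions). Helicases had a median of -1.76, with 26 of 32 lower in BKO. 3′ end processing factors had a median of -1.61 and RBM genes of -1.16, with 4 of 6 and 15 of 22 lower. The median of the RBM genes was -0.15 over the 10 of them with a region of at least 20 reads in each input and -0.12 with ratios centred on the median of all regions, and that of the helicases was -1.03 with the mean over all regions of each gene. The median log2 ratio of IP RPM had the last pair in the other order, with -2.33 for decay and 3′ UTR binding factors, -1.27 for helicases, -0.57 for 3′ end processing factors, 0.29 for splicing factors and 0.66 for RBM genes. Genes of a class share the same 4 libraries and are not replicates, and differences between classes were not tested.

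**Figure D3:**
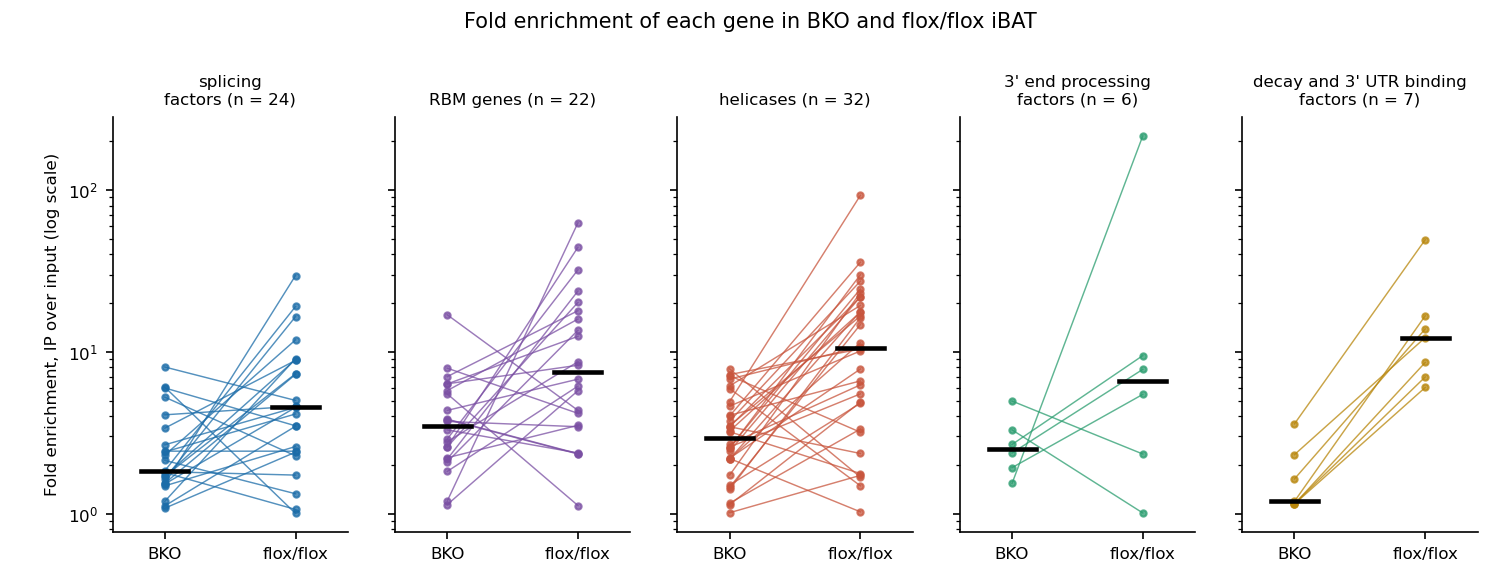
Fold enrichment (IP over input, log scale) of each gene in BKO (left) and flox/flox (right) iBAT, joined by a line, by class. Black bars are medians, which were 1.19 in BKO and 12.2 in flox/flox for the 7 decay and 3′ UTR binding factors, and 1.83 in BKO and 4.54 in flox/flox for the 24 splicing factors.

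Decay and 3′ UTR binding factors were lower in BKO without exception. All 7 (100%) were at least 2-fold lower, with log2 ratios from -3.81 to -2.39 and with every counting interval below 0. A peak was called in flox/flox for all 7 and in BKO for 1, *Cnot7*. The other 6 were thus listed through the flox/flox peak only, and their direction largely follows from that. Over all genes called in flox/flox only, 1770 of 1788 were lower in BKO. The IP RPM of the decay and 3′ UTR binding factors was lower in BKO for 7 of 7 (3597 of 6192 over all genes). Their input RPM was higher in BKO for 5 (4653 of 6192 over all genes).

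*Cnot2*, a scaffold subunit of the CCR4-NOT complex, had the deepest data of the class, in a 3′ UTR region at chr10:116485159-116485521. It had 128 IP and 76 input reads in BKO, against 820 IP and 62 input reads in flox/flox iBAT, for a fold enrichment of 1.64 in BKO and 13.8 in flox/flox (log2 ratio -3.08, 95% interval -3.86 to -2.30). The IP alone separated the genotypes, since the log2 ratio of the input was only -0.31. A neighbouring 3′ UTR region of *Cnot2* was also lower, at 1.73 in BKO and 3.08 in flox/flox (log2 ratio -0.83, -1.59 to -0.08).

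The catalytic deadenylases of the complex had the same direction. *Cnot8* (3′ UTR, chr11:58118222-58118482) had 114 IP and 97 input reads in BKO, against 101 and 17 in flox/flox, for a fold enrichment of 1.15 in BKO and 6.02 in flox/flox (log2 ratio -2.39, -3.55 to -1.23). *Cnot7*, its paralog (internal exon, chr8:40507359-40507698), had 115 IP and 48 input reads in BKO, against 310 and 26 in flox/flox, for a fold enrichment of 2.32 in BKO and 12.2 in flox/flox (log2 ratio -2.40, -3.45 to -1.35). In *Cnot8* the IP RPM differed little (log2 ratio -0.55) and the input more (1.84), and in *Cnot7* it was the reverse (-2.14 for the IP and 0.26 for the input). *Cnot6*, a deadenylase of the CCR4 type, and the subunit gene *Cnot11* had log2 ratios of -2.60 and -2.90.

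Outside CCR4-NOT, *Pum3*, a Puf-domain protein found in the nucleolus, had 77 IP and 63 input reads in BKO, against 266 and 16 in flox/flox, at chr19:27390022-27390319 in its 3′ UTR. Its fold enrichment was 1.19 in BKO and 16.7 in flox/flox (log2 ratio -3.81, -5.01 to -2.60), the lowest of the class. *Celf2*, which regulates splicing and mRNA stability, rested on 2 input reads in each genotype, and its intronic region had a log2 ratio of -3.78 with a wide interval (-7.28 to -0.28).

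Helicases were lower in BKO for 26 of 32 genes (81.3%), with 22 at least 2-fold lower (68.8%) and 4 at least 2-fold higher. The DEAH-box genes (Dhx) were lower in 10 of 11, with a median of -2.11, and the DEAD-box genes (Ddx) in 16 of 21, with a median of -1.65. In the GO labels of the table, 19 helicases were marked as nucleolar, of which 16 were lower (84.2%, against 70.3% of all genes), and of the 13 without this label 10 were lower.

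Where each input held at least 20 reads, the 3 largest decreases of the 91 genes were helicases that act in ribosome assembly. *Ddx56* (3′ UTR, chr11:6258883-6259269) had 114 IP and 64 input reads in BKO, against 588 and 26 in flox/flox. The fold enrichment was 1.73 in BKO and 23.2 in flox/flox, a log2 ratio of -3.74 (-4.74 to -2.74), and no peak was called there in BKO. *Ddx54* (last exon, chr5:120627108-120627683) had 436 IP and 168 input reads in BKO, against 1126 and 39 in flox/flox, with a fold enrichment of 2.53 in BKO and 29.9 in flox/flox (log2 ratio -3.56, -4.30 to -2.83). A peak remained called at *Ddx54* in both genotypes, and this region also lies over another gene.

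*Ddx28*, whose protein assembles the large subunit of the mitochondrial ribosome, had 448 IP and 301 input reads in BKO, against 595 and 42 in flox/flox, in its 3′ UTR (chr8:106009583-106010380). Its fold enrichment was 1.45 in BKO and 14.7 in flox/flox (log2 ratio -3.34, -4.04 to -2.64), with a log2 ratio of 2.21 for the input and -1.13 for the IP, so most of the difference lay in the input. *Ddx20* (Gemin3, part of the SMN complex that assembles spliceosomal snRNPs) had a lower ratio still, at -4.23, on 8 input reads in flox/flox.

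*Ddx5*, which acts in transcription and splicing, was the deepest helicase. Its 3′ UTR region (chr11:106781771-106782204) had 1217 IP and 1174 input reads in BKO, against 642 and 395 in flox/flox. Its fold enrichment was 1.01 in BKO (0.906 to 1.14), which is no enrichment over input, and 1.72 in flox/flox (1.45 to 2.06), a log2 ratio of -0.77 (-1.07 to -0.46). *Ddx5* was thus lower in BKO from a modest enrichment in flox/flox iBAT.

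*Dhx32*, a DEAH-box gene, had 287 IP and 247 input reads in BKO, against 648 and 140 in flox/flox, in a last exon region that also lies over *Bccip* (chr7:133720698-133721332). The enrichment was 1.14-fold in BKO and 4.89-fold in flox/flox (log2 ratio -2.11, -2.61 to -1.60). *Ddx39*, an mRNA export helicase with a near copy in *Ddx39b*, had 540 IP and 196 input reads in BKO, against 805 and 136 in flox/flox, in a region over an intron and over *Adgre5* (chr8:83723338-83723709). It kept a fold enrichment of 2.69 in BKO, against 6.25 in flox/flox (log2 ratio -1.22, -1.71 to -0.72), and neither gene can be told apart from its neighbour by these counts.

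The 6 helicases with higher enrichment in BKO were *Ddx6*, *Ddx42*, *Dhx57*, *Ddx24*, *Ddx3x* and *Ddx58*, and a peak was called in BKO only for each. *Ddx6*, a decapping activator of mRNA decay, had 704 IP and 87 input reads in BKO, against 18 and 11 in flox/flox, at its 5′ UTR (chr9:44607070-44607458), with a fold enrichment of 7.84 in BKO and 1.68 in flox/flox (log2 ratio 2.22, 0.68 to 3.76). *Ddx24* had 559 IP and 249 input reads in BKO, against 28 and 29 in flox/flox (chr12:103424220-103424643), with a fold enrichment of 2.19 in BKO and 1.03 in flox/flox (log2 ratio 1.09, 0.01 to 2.18). Both the IP and the input RPM of *Ddx24* were higher in BKO, with log2 ratios of 3.55 and 2.46.

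Splicing factors were lower in BKO for 16 of 24 genes (66.7%), with 12 at least 2-fold lower (50%) and 2 at least 2-fold higher. Their families differed in the median, with -1.90 for the Sf3 genes, which encode subunits of the U2 snRNP (5 of 6 lower), -0.81 for the Hnrnp genes (7 of 11 lower) and -0.48 for the Srsf genes (4 of 6 lower). Input RPM was higher in BKO for all 11 Hnrnp genes, with a median log2 ratio of 1.72, and IP RPM was lower for 3 of them. Over all 6192 genes, input RPM was higher for 4653 and IP RPM lower for 3597.

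*Srsf1*, the SR protein of constitutive and alternative splicing, had the clearest decrease of the class. Its 3′ UTR region (chr11:88050932-88051506) had 535 IP and 439 input reads in BKO, against 1898 and 221 in flox/flox. The fold enrichment was 1.19 in BKO (0.997 to 1.42) and 9.09 in flox/flox (7.47 to 11.1), a log2 ratio of -2.93 (-3.31 to -2.55). The difference lay in the IP, with a log2 ratio of -2.55 against 0.39 for the input, and a peak was still called in BKO.

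*Srsf5*, another SR protein, had 1020 IP and 414 input reads in BKO, against 1368 and 351 in flox/flox, in its last exon (chr12:80949779-80950170). Enrichment was 2.41-fold in BKO and 4.13-fold in flox/flox, a smaller log2 ratio of -0.78 (-1.11 to -0.45). *Sf3b5*, a small subunit of the SF3b complex that holds the branch point, had 513 IP and 325 input reads in BKO, against 1139 and 166 in flox/flox, in its last exon (chr10:13008832-13009204), with a fold enrichment of 1.54 in BKO and 7.25 in flox/flox (log2 ratio -2.23, -2.67 to -1.80). The intervals of *Srsf5* and *Sf3b5* did not overlap. *Sf3a3*, a subunit of the SF3a complex, had the lowest ratio of the class, -4.27 (-6.06 to -2.49), on 6 input reads in flox/flox.

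*Hnrnpu*, a nuclear scaffold protein that binds pre-mRNA, had 2 adjacent regions. The more enriched, in an internal exon (chr1:178329752-178330786), had 1013 IP and 582 input reads in BKO, against 902 and 130 in flox/flox, for a fold enrichment of 1.70 in BKO and 7.32 in flox/flox (log2 ratio -2.11, -2.53 to -1.68). The 3′ UTR region had a fold enrichment of 1.89 in BKO and 5.62 in flox/flox (log2 ratio -1.57, -2.16 to -0.98). Both regions were lower in BKO by intervals that overlap each other.

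2 of the proteins whose RNA binding m6A is known to alter were in the table, and *Hnrnpa2b1* was not. *Hnrnpc* had 336 IP and 294 input reads in BKO, against 159 and 48 in flox/flox, in an intron (chr14:52074971-52075418), with a fold enrichment of 1.12 in BKO and 3.47 in flox/flox (log2 ratio -1.63, -2.36 to -0.91). Its IP RPM was not lower in BKO (log2 ratio 0.35) while its input was higher (1.99). *Rbmx* (hnRNP G) had 150 IP and 33 input reads in BKO, against 184 and 28 in flox/flox, in its 3′ UTR (chrX:57386910-57387250), with a fold enrichment of 4.35 in BKO and 6.78 in flox/flox (log2 ratio -0.64). The interval of *Rbmx* included 0 (-1.74 to 0.46), so a difference was not detectable at this depth.

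8 splicing factors were higher in BKO, 7 of them called in BKO only. *Srsf7*, an SR protein, had the highest log2 ratio of the 91 genes, 2.59 (1.01 to 4.18), in a first exon region (chr17:80207095-80207367) with 166 IP and 26 input reads in BKO, against 16 and 17 in flox/flox. The fold enrichment in BKO was 6.05, while IP and input were level in flox/flox. *U2af1l4*, a relative of the small U2AF subunit that recognises the 3′ splice site, is listed under 2 gene IDs for 1 region (internal exon, chr7:30563426-30563724), with 164 IP and 26 input reads in BKO, against 68 and 20 in flox/flox, and its fold enrichment of 5.98 in BKO and 3.49 in flox/flox had an interval that included 0 (log2 ratio 0.78, -0.52 to 2.07). At the most enriched region, *Srsf7* was the only one of the 24 splicing factors whose interval lay above 0.

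RBM genes, which carry RNA recognition motifs, were lower in BKO for 15 of 22 (68.2%), with 11 at least 2-fold lower (50%) and 2 at least 2-fold higher. The counting interval lay below 0 for 9 of 22 (40.9%, against 51.1% of all genes) and above it for 3 (11.8% of all genes). *Rbm39*, a splicing coactivator, had 1016 IP and 267 input reads in BKO, against 132 and 40 in flox/flox, in an internal exon (chr2:156172792-156173102). IP and input RPM were both higher in BKO, with log2 ratios of 2.21 and 2.11, and the fold enrichment was 3.71 in BKO and 3.45 in flox/flox (log2 ratio 0.11, -0.66 to 0.87). No difference in enrichment was detectable for *Rbm39* at this depth.

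*Rbm8a2*, a near-identical copy of the exon junction complex gene *Rbm8a*, had 542 IP and 190 input reads in BKO, against 236 and 28 in flox/flox (3′ UTR, chr1:175978357-175978949). Its fold enrichment was 2.78 in BKO and 8.68 in flox/flox (log2 ratio -1.64, -2.50 to -0.79), and reads of the 2 copies may have been split between them. *Rbm17*, *Rbm10* and *Rbm5*, which act on splice site choice, were also lower, with log2 ratios of -3.45, -2.70 and -1.75.

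The RBM genes with higher enrichment in BKO included 3 of the 7 genes of the whole set whose interval lay above 0. *Rbm42* had 308 IP and 54 input reads in BKO, against 36 and 34 in flox/flox, in its first exon (chr7:30649905-30650148), with a fold enrichment of 5.50 in BKO and 1.12 in flox/flox (log2 ratio 2.29, 1.18 to 3.40). The difference was in the IP, since the log2 ratio of the input was 0.05. This *Rbm42* region also lies over another gene. *Rbms2*, which binds single-stranded nucleic acid, had 513 IP and 130 input reads in BKO, against 176 and 79 in flox/flox, in its 3′ UTR (chr10:128131312-128131871), with a fold enrichment of 3.84 in BKO and 2.35 in flox/flox (log2 ratio 0.71, 0.04 to 1.37). *Rbm12b1* was the third, at a log2 ratio of 1.96 (0.20 to 3.73), and its reads may be shared with its copy *Rbm12b2*. *Rbm4b*, a splicing regulator whose region also lies over *Gm21992* (chr19:4761971-4762299), had 275 IP and 81 input reads in BKO, against 104 and 46 in flox/flox, and a log2 ratio of 0.47 with an interval that included 0 (-0.39 to 1.34).

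3′ end processing factors went both ways. The 4 lower genes were *Cpsf2*, *Cpsf3*, *Cstf1* and *Cstf3*, each in the last exon and each at least 2-fold lower, and the 2 higher genes were *Cpsf7* and *Cstf2t*. *Cstf1*, a CstF subunit, had 607 IP and 308 input reads in BKO, against 1042 and 202 in flox/flox (chr2:172380314-172381043), with a fold enrichment of 1.93 in BKO and 5.46 in flox/flox (log2 ratio -1.50, -1.92 to -1.09). *Cpsf2*, a subunit of the cleavage complex, had 226 IP and 82 input reads in BKO, against 222 and 24 in flox/flox (chr12:102003183-102003821), with a fold enrichment of 2.68 in BKO and 9.48 in flox/flox (log2 ratio -1.82, -2.81 to -0.84). Both were called as peaks in both genotypes.

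*Cpsf7*, a subunit of cleavage factor I that steers poly(A) site choice, was the largest increase in a 3′ UTR. Its 3′ UTR region (chr19:10545632-10546078) had 393 IP and 116 input reads in BKO, against 38 and 40 in flox/flox, with a fold enrichment of 3.30 in BKO (2.46 to 4.41) and 1.01 in flox/flox (0.544 to 1.88), a log2 ratio of 1.71 (0.72 to 2.69). *Cstf2t*, a paralog of the CstF subunit *Cstf2*, lies within *Prkg1* and shares its region with it (chr19:31083844-31084491), with 486 IP and 95 input reads in BKO, against 21 and 9 in flox/flox, and a log2 ratio of 1.09 whose interval included 0 (-0.50 to 2.68).

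*Cpsf3*, the endonuclease of 3′ end cleavage, had no input read in flox/flox, 202 IP reads there, and 54 IP and 34 input reads in BKO. Set against a floor of 3 fragments (6 reads) in the flox/flox input library, with the other counts taken as they stand, its enrichment was 23.0-fold lower in BKO. This value leaves out counting error in the other counts. The counting interval of *Cpsf3* ended at a log2 ratio of -3.03, a smaller decrease. *Rbm27*, also with no flox/flox input read, was 8.40-fold lower by the same floor, with an interval that ended at -1.30, again a smaller decrease. *Rbm28* and *Rbm12*, the other genes with no flox/flox input read, had intervals that included 0, so their direction is not known. Both still stand among the lower and the at least 2-fold lower genes in the counts above. By the same floor, *Rbm12* was higher in BKO (log2 ratio 1.26) and *Rbm28* only 1.22-fold lower. With the 4 genes set at this floor the median log2 ratio was -1.57 over the 91 genes, -0.65 over RBM genes and -1.61 over 3′ end processing factors.

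The ratio went with the place of the region in the gene, as the authors labelled it. Of the 112 regions, 71 lay in a last exon or 3′ UTR (63.4%, 95% Wilson interval 54.2 to 71.7), against 64.3% of all regions with a gene symbol. The 42 regions in 3′ UTRs had a median log2 ratio of -2.22, with 38 lower in BKO, and the 29 in last exons had -1.50, with 19 lower. The 23 regions in internal exons had a median of 0.07, with 11 lower, and the 11 in introns had -1.63, with 9 lower. Over all regions, the medians were -1.42 in 3′ UTRs, -0.91 in last exons, 0.03 in internal exons and -1.70 in introns. Of all regions with a gene symbol, 2282 of 3023 in 3′ UTRs and 1255 of 1944 in last exons were lower in BKO. In internal exons 504 of 1022 were lower, and in introns 617 of 853.

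At the 5′ end the direction was the opposite. The 7 regions in a 5′ UTR or first exon, of *Ddx6*, *Ddx42*, *Ddx47*, *Srsf7*, *Srsf10*, *Hnrnpm* and *Rbm42*, were all higher in BKO (median 2.22). A peak was called at each in BKO and at none in flox/flox. All 7 were thus listed through the BKO peak only, and their direction largely follows from that. Over all genes whose most enriched region was called in BKO only, 1364 of 1733 were higher in BKO. Over all regions, 5′ UTR and first exon regions had a median log2 ratio of 0.66. Of these 748 regions, 248 were lower in BKO, as were 86 of the 524 among them called in BKO only. Of the regions called in BKO only, 29.4% (10 of 34) lay in a last exon or 3′ UTR, against 87.1% (27 of 31) of those called in flox/flox only. Over all regions with a symbol the shares were 45.7% of those called in BKO only and 71.3% of those called in flox/flox only. Most of these 5′ regions were thin in flox/flox input, with 4 reads each at *Ddx42* and *Ddx47*, 6 at *Srsf10* and *Hnrnpm*, 11 at *Ddx6*, 17 at *Srsf7* and 34 at *Rbm42*.

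**Figure D4:**
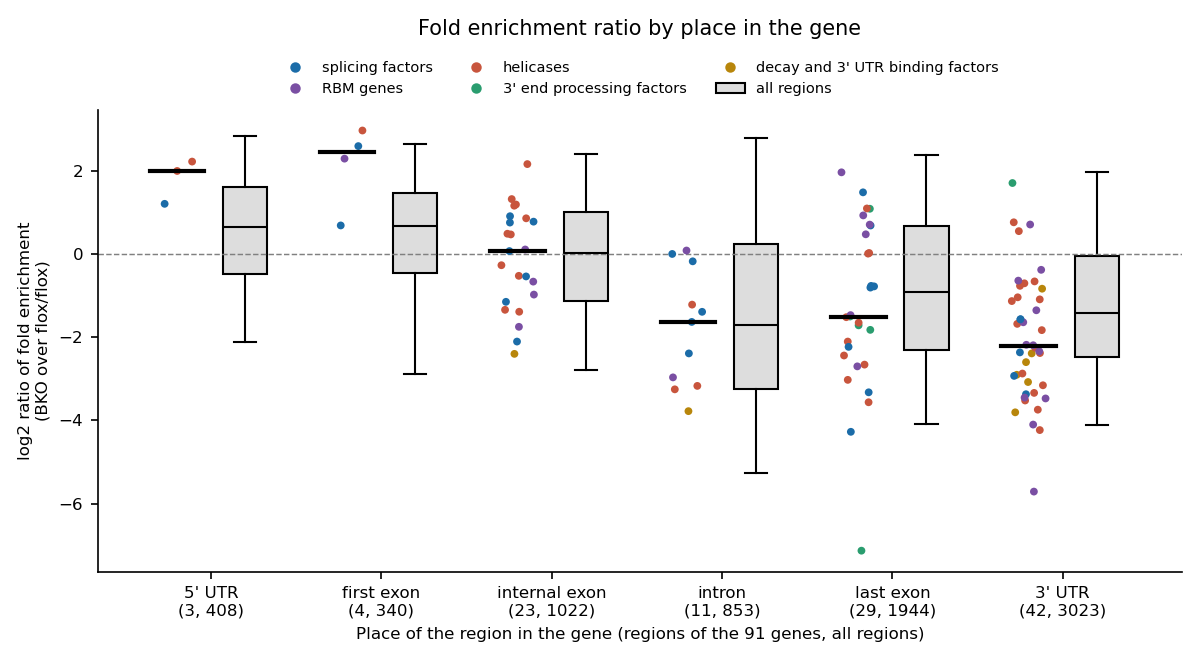
Log2 ratio of fold enrichment, BKO over flox/flox, by place of the region. Points are the 112 regions of the 91 genes coloured by class, with black bars at their medians, and boxes are all regions with a gene symbol (middle line the median, box the quartiles, whiskers the 5th and 95th percentiles). Numbers under each place count both. The 7 points in 5′ UTRs and first exons, each called as a peak in BKO only, all lie above 0, and 38 of the 42 in 3′ UTRs lie below it. Of all regions with a gene symbol, 248 of 748 in 5′ UTRs and first exons and 2282 of 3023 in 3′ UTRs were lower in BKO.

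The classes differed in where their regions lay. Splicing factors had 46.4% of their 28 regions in a last exon or 3′ UTR, helicases 62.2% of 45, RBM genes 72% of 25 and decay and 3′ UTR binding factors 75% of 8, and all 6 regions of the 3′ end processing factors lay there. Within last exons and 3′ UTRs alone, the median log2 ratio was -1.57 for splicing factors, -1.76 for helicases, -1.56 for RBM genes, -1.61 for 3′ end processing factors and -2.75 for decay and 3′ UTR binding factors. The splicing factors lay close to the helicases and RBM genes there. These medians are over regions, while the class medians further above take the most enriched region of each gene, so they are unlike measures.

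Inside single genes, the ratio was also mostly lower at the 3′ region. For 9 of the 91 genes the table held both a last exon or 3′ UTR region and a 5′ UTR, first or internal exon region, and the log2 ratio was lower at the 3′ region in 8 of them, with a median difference of -2.57. Among all genes with both, 528 of 633 (83.4%) had the lower ratio at the 3′ region, with a median difference of -2.07. In 6 of the 9 (*Ddx47*, *Ddx54*, *Dhx38*, *Dhx8*, *Dhx32* and *Dhx57*), the 3′ region was lower and the other higher in BKO (66.7%, against 49% of all genes with both), and in 2 of them, *Ddx47* and *Ddx54*, both intervals left out 0. The other region held 2 to 130 flox/flox input reads, with a median of 6. Both regions held at least 20 flox/flox input reads in *Dhx40*, with the lower ratio at the 3′ region (-2.25, and -1.34 at the internal exon), and in *Hnrnpu*, the one exception, with the lower ratio at the internal exon. Among all genes with such depth, 153 of 172 had the lower ratio at the 3′ region.

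*Ddx47*, which acts in early rRNA processing, had the widest contrast after *Ddx54*. Its last exon region had 588 IP and 166 input reads in BKO, against 1128 and 54 in flox/flox, with a fold enrichment of 3.45 in BKO and 21.8 in flox/flox (log2 ratio -2.66, -3.31 to -2.01). Its first exon region had 106 IP and 6 input reads in BKO, against 8 and 4 in flox/flox, with a fold enrichment of 15.0 in BKO and 1.91 in flox/flox (log2 ratio 2.97, 0.25 to 5.69). *Ddx54* likewise had a log2 ratio of -3.56 at its last exon and 2.16 at an internal exon, and *Dhx38*, a DEAH-box helicase of the second splicing step, -2.87 in its 3′ UTR and 1.19 at an internal exon. The last exon region of *Ddx54* also lies over another gene.

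**Figure D5:**
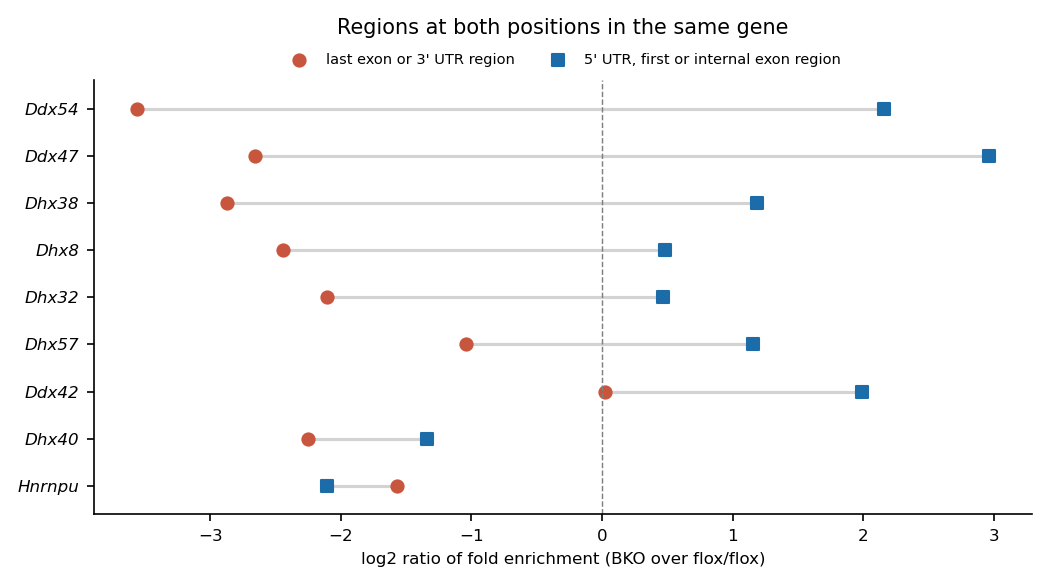
Log2 ratio of fold enrichment, BKO over flox/flox, at a last exon or 3′ UTR region (circles) and at a 5′ UTR, first or internal exon region (squares) of the same gene, for the 9 genes with both. The circle lies left of the square in 8 genes, with a difference of -5.72 in *Ddx54* and -5.63 in *Ddx47*.

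The first exon region of *Ddx47* (chr6:135011536-135011730) covers the annotated start of the gene. The 30 bases of GRCm38.p6 that follow the start by 20 bases, at chr6:135011632-135011661 on the + strand, are shown from RefSeq because they hold the first ATG after the annotated start, in capitals, inside the region whose enrichment was higher in BKO.
Ddx47: cacgagcaagATGgcggcggacgaggaacc
The regions of 6 genes (*Ddx42*, *Ddx47*, *Srsf7*, *Srsf10*, *Hnrnpm* and *Rbm7*) overlapped the first 50 bases of a RefSeq gene start. The motif GGACT, the DNA form of the m6A consensus, was searched on the sense strand only and was in none of these 6 stretches of 50 bases. Over windows at all RefSeq gene starts it was found in 1891 of 32851 (5.76%), and in 7 of 107 windows of the 91 genes (6.54%), of which 79 had a window. These shares depend on the number of bases searched in each window and are not set against the 6 stretches. A match of these letters is a description and not a site.

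Regions of one gene close to each other could also differ. *Srsf4*, an SR protein, had 2 regions in its last exon. The one at chr4:131900193-131901297 had 1469 IP and 480 input reads in BKO, against 246 and 244 in flox/flox, with a fold enrichment of 2.99 in BKO and 1.07 in flox/flox (log2 ratio 1.48, 1.06 to 1.90), and the other, at chr4:131901356-131901711, had 258 IP and 153 input reads in BKO, against 263 and 16 in flox/flox, with a fold enrichment of 1.65 in BKO and 16.5 in flox/flox (log2 ratio -3.33, -4.41 to -2.25). The 2 regions went in opposite directions with intervals that do not overlap. The region at chr4:131901356-131901711 also lies over another gene, so its reads cannot be given to *Srsf4* alone. *Dhx33*, a helicase of rRNA synthesis, likewise had a log2 ratio of -2.38 (-3.08 to -1.68) and of 0.76 (-0.19 to 1.71) at 2 regions of its 3′ UTR.

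The labels of place were set against the ends of the genes in RefSeq for 98 of the 112 regions. The 61 placed regions in a last exon or 3′ UTR had their centre at a median of 95.8% of the gene length from its start. In 3 of them, *Ddx24* (7.92%), *Rbm7* (2.095%) and *Cstf2t* (35.4%), the centre lay in the first part of the gene, before its middle, and all 3 were higher in BKO. The label of a last exon at *Ddx24* and *Rbm7* was thus at odds with the position of the region in the gene.

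Other genes of RNA processing, from a list of 111 spliceosome, poly(A), decay and RNA-binding genes not named by the rule above, were in the table for 56. Of these, 40 were lower in BKO (median log2 ratio -1.25), and 34 were at least 2-fold lower and 12 at least 2-fold higher. Over all genes, 70.3% were lower, 56% at least 2-fold lower and 17.4% at least 2-fold higher. The counts of the 56 genes were near these shares, and nothing particular to them is read from this. Among the 91 genes, the table's GO labels mark 36 for mRNA processing, of which 28 were lower (77.8%), 31 for RNA splicing, of which 25 were lower (80.6%), 22 for the spliceosomal complex, of which 20 were lower (90.9%), and 17 for nuclear specks, of which 12 were lower (70.6%), against 70.3% of all genes. Of the genes without each label, in the same order, 40 of 55, 43 of 60, 48 of 69 and 56 of 74 were lower. The labels share many genes, and differences between them were not tested.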

How the data were processed

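The deposited table holds, for each region and library, whole read counts, the same counts with 1 added and scaled by the authors to RPM (reads scaled to library size), and the fold enrichment, a linear ratio of IP RPM to input RPM, with a mark for peaks called in each genotype. Per the labels and the study's methods, reads were mapped to GRCm38 with BWA (0.7.12-r1039), which does not align reads across splice junctions, and peaks were called with MACS2 (2.1.0). The merging of the peaks of both genotypes, the counting of reads and the base at which coordinates start are not given in the sources consulted. The deposited column of the authors' own log2 ratio was not used. Every listed region has a fold enrichment above 1 in both genotypes.

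Each region was counted once per gene symbol, and a gene took its most enriched region. Counting intervals (95%) were taken on the log scale from counts plus 1 with 2 reads per fragment, since 77.2% to 92.5% of counts from 1 to 20 were even. Shares of regions have Wilson intervals, which take regions as separate draws. PCR copies are not independent molecules, so the intervals of the ratios cover counting error only. On simulated counts, 96.3% of intervals over 9243 regions held the true log2 ratio. True changes of -2 and 2, set in 100 regions each with at least 20 reads in each input, came back as -1.96 and 2.01. The counts were simulated from the same model as the intervals, with 2 reads per fragment. The simulation thus checks the calculation only, and not PCR copies, the spread between animals or changes at regions with fewer input reads. Reads were named in full for the 4 genes of each class with the most input reads, the 5 largest decreases and the 5 largest increases where each input held at least 20 reads, and the m6A readers among the genes. Others serve as examples, chosen after their values were seen. The genes, classes and lists were chosen with earlier results of these data known, and the GO labels were read after the table was seen.

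All 91 symbols were found in the RefSeq table (GRCm38.p6), 1 of them (*Ddx39*) through a synonym. 14 of the 112 regions (12.5%) lie over more than 1 gene. The software was SciPy 1.17.1, NumPy 2.4.6 and pandas 2.3.3 under Python 3.11.15, with Matplotlib 3.10.9 for the plots.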

Additional observations from a re-analysis of the deposited data

How the results depend on the processing

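Alternatives changed the region taken for a gene, the filter on input reads, the centring and the value added before the log. Of 76 values recomputed, 56 kept their direction and stayed within 1.5 times the main value (or within the Wilson interval, for shares). Centring on the median of all regions (-1.05 for the enrichment, 0.80 for the input and -0.27 for the IP, on the log2 scale) mattered most. The lower count became 56 and the higher count 35, a lower share of 61.5% in place of 74.7% (55.2% and 70.3% over all genes). The median log2 ratio became -0.58 over the 91 genes, -0.71 for helicases, -0.12 for RBM genes, -0.56 for 3′ end processing factors and -1.85 for decay and 3′ UTR binding factors, and that of the splicing factors changed sign, at 0.071. The median input ratio became 0.33 and the median IP ratio -0.50. Where each input held at least 20 reads, 53 genes were left, 38 lower (71.7%, against 73.4% of all genes) and 15 higher, the median of RBM genes was -0.15, the median input ratio was 0.46, and 73.7% of regions lay in a last exon or 3′ UTR. With regions called in both genotypes, 43 genes were left, 37 lower and 6 higher. Of regions called in flox/flox, 78.2% lay in a last exon or 3′ UTR. With the mean over all regions of a gene, the median was -1.03 for helicases and the median IP ratio -0.41. With 1 added to both fold enrichments, splicing factors had a median of -0.65. The cause was not tested, apart from the smaller number of genes under the filters. Leaving out a library was not possible with 1 per group.

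The flox/flox input limits most values, since 42 of 91 genes had under 20 reads there and 4 had none. Taking the most enriched region favours regions with few input reads. All 4 libraries are single pools, so the spread between animals is unknown, and differences in tissue composition cannot be told apart from differences per cell.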
